A study of Mus musculus with 12 samples.

Results

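The UDP-glucuronosyltransferases (UGTs) of mouse liver were followed through ribosome profiling of *Mettl5* knockout (KO) and wild-type (WT) mice. The set was a list of gene names: 9 UGT genes (*Ugt1a1*, *Ugt2a3*, *Ugt2b1*, *Ugt2b5*, *Ugt2b34*, *Ugt2b35*, *Ugt2b36*, *Ugt3a1* and *Ugt3a2*) and *Ugdh*. All 10 genes were found among the 10607 genes of the deposited normalized table and among the 55487 genes of the input count table, and all 10 passed the low-value filters of the tests below. The rule used names and no threshold on a value, but the list was drawn up with earlier results of these data known.

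The study profiled whole liver from 3 WT mice and 3 KO mice, each KO mouse being a littermate of the WT mouse of the same number. KO mice had lost exon 2 of *Mettl5* in the whole body, after a floxed exon 2 allele was crossed with a CMV-Cre transgenic line. The allele was made in embryonic stem cells of a C57bl/6 x 129S6 F1 hybrid and was backcrossed to B6. WT mice are labelled only as wild type. The study used male and female mice over a range of ages, and neither is given for single mice of these libraries. Livers were snap-frozen, ground and lysed in buffer with cycloheximide, which holds ribosomes on the mRNA. From each lysate 1 library of total RNA (input) and 1 library of ribosome-protected fragments after micrococcal nuclease (RPF) were made, 12 libraries in all. METTL5 is the methyltransferase of a single N6-methyladenosine in 18S rRNA, and the comparison asks which mRNAs carry more or fewer ribosomes without it. Translation efficiency (TE) is RPF divided by input.

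UGTs are enzymes of the endoplasmic reticulum membrane that join a sugar, usually glucuronic acid, to bilirubin, steroids, bile acids and drugs, which makes them soluble enough to leave in bile or urine. The liver is a main site of this reaction. *Ugdh* encodes UDP-glucose dehydrogenase, which makes the donor UDP-glucuronic acid; *Ugt1a1* encodes the bilirubin-conjugating enzyme; the UGT2 genes encode enzymes for steroids and many drugs; and UGT3A enzymes are known for using sugars other than glucuronic acid.

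In outline, RPF of *Ugt2b5* and *Ugt2b36* fell in KO liver, and the RPF log2 differences of 5 further genes (*Ugt2b1*, *Ugt2b34*, *Ugt2b35*, *Ugt3a1* and *Ugt3a2*) lay between -0.64 and -0.39 without passing the threshold. With litter as a block 4 of these 5 passed as well, all but *Ugt2b1*. *Ugt1a1* had a log2 difference of 0.12. No gene of the set passed in input or in TE. All 10 coding sequences were below the median GC content of the genes tested, and the calls of *Ugt2b5* and *Ugt2b36* were lost once the trend of each library with GC content was taken out.

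The UGT2 genes lie side by side on chromosome 5 (mm10 coordinates, GENCODE vM21). *Ugt2b34* spans chr5:86889767-86906937, *Ugt2b1* chr5:86916638-86926530, *Ugt2b35* chr5:87000860-87013275, *Ugt2b36* chr5:87065927-87092555, *Ugt2b5* chr5:87124960-87140318 and *Ugt2a3* chr5:87324972-87337195. *Ugdh* lies elsewhere on the same chromosome, at chr5:65413221-65435949. *Ugt3a1* (chr15:9276888-9315032) and *Ugt3a2* (chr15:9335550-9370955) are neighbours on chromosome 15, and *Ugt1a1* spans chr1:88211959-88218997.

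Several of these genes are so alike that a short footprint can fit more than 1 of them. The first 90 coding bases, all within exon 1, show this for *Ugt2b5*, its copy *Ugt2b38* and 3 further UGT2B genes. Sequences are read from GRCm38 (mm10) in the direction of the gene, and capitals mark bases that differ from *Ugt2b5*. The stretches are chr5:87140217-87140306 (minus strand) for *Ugt2b5*, chr5:87424082-87424171 (minus) for *Ugt2b38*, chr5:87092435-87092524 (minus) for *Ugt2b36*, chr5:87000892-87000981 (plus) for *Ugt2b35* and chr5:86926409-86926498 (minus) for *Ugt2b1*.
Ugt2b5: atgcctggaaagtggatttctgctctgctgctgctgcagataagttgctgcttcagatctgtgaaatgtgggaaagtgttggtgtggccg
Ugt2b38: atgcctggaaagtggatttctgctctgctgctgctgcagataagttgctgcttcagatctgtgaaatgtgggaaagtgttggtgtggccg
Ugt2b36: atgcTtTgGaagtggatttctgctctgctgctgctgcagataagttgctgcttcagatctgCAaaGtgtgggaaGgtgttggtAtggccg
Ugt2b35: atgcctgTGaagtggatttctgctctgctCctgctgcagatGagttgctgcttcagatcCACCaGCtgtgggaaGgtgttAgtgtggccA
Ugt2b1: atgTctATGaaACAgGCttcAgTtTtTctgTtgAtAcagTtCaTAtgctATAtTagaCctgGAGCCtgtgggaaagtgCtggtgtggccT
Over these 90 bases *Ugt2b38* had 0 differences from *Ugt2b5*, *Ugt2b36* had 8, *Ugt2b35* had 13 and *Ugt2b1* had 32.

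Over whole coding sequences *Ugt2b5* was 97.0% identical to *Ugt2b38*, 94.7% to *Ugt2b37*, 89.0% to *Ugt2b36* and 87.8% to *Ugt2b35*. Of all 30-base windows of the *Ugt2b5* coding sequence, 67.1% were found unchanged in the transcripts of another gene, and 98.1% matched another UGT gene with at most 2 mismatches, the number the study allowed for RPF reads. The other extreme was *Ugt2b1*, with 1.54% of windows found elsewhere. *Ugt3a1* and *Ugt3a2* were 93.2% identical, and 31.0% and 29.7% of their windows were found elsewhere. The share was 17.8% for *Ugt2b36*, 11.9% for *Ugdh*, 10.9% for *Ugt2a3*, 9.69% for *Ugt2b35* and 8.55% for *Ugt2b34*. With at most 2 mismatches, windows matching another UGT gene made up 61.2% for *Ugt2b36*, 54.4% for *Ugt2b35*, 68.3% for *Ugt3a1* and 68.4% for *Ugt3a2*. They made up 20.5% for *Ugt2a3*, 15.1% for *Ugt2b1* and 14.4% for *Ugt2b34*. RPF reads with more than a single position and input reads that were not unique were dropped by the study. The values of *Ugt2b5*, *Ugt3a1* and *Ugt3a2* in particular therefore rest on the parts of the gene that differ from their copies. Where near matches count as positions, this also holds for *Ugt2b35* and *Ugt2b36*.

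*Ugt1a1* is a different case, because the UGT1A genes have first exons of their own and share all later exons. Of its 2224 exon bases, 1311 (58.9%) belong also to 8 other UGT1A genes, which leaves 913 of its own, and 45.0% of its coding windows occur elsewhere. Values given for *Ugt1a1* therefore rest on its first exon where reads were assigned to 1 gene only, and are uncertain.

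Depth was 8326325 to 11825643 counted read pairs per input library. The normalized table held 2398804 to 5121304 reads per input library and 4623826 to 9184242 per RPF library. *Mettl5* itself had 21, 18 and 12 input reads in WT mice 1 to 3 and 13, 7 and 5 in KO mice. Its RPF reads were 67, 56 and 103 in WT and 12, 9 and 10 in KO, so the genotype labels held in every RPF library. Livers had the hepatocyte markers (summed over 6 genes, between 20420 and 27740 CPM in WT and between 21460 and 23400 in KO, CPM being counts relative to the size of the library), and the kidney genes *Umod* and *Slc34a1* were at 0 in all 6 input libraries. Summed stellate cell markers (5 genes) were 79.2 to 91.8 CPM in WT and 102.4 to 108.1 in KO, and were the cell type sum in which the genotypes did not overlap. In every input library *Xist* was at 0 and the Y-linked genes were detected, so by these genes all 6 mice were male. Summed male-biased liver genes (5 genes) were 543.5 to 699.7 CPM in WT and 329.8 to 553.8 in KO.

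Levels between genes were compared in WT input as CPM per kilobase of exon. *Ugt2b5* was at 53.6 ± 6.98 (SD, n = 3), *Ugt2b1* at 45.0 ± 3.22 and *Ugt2b36* at 43.8 ± 3.24, and the ranges of these neighbours over mice overlapped. A gap separated them from *Ugt2a3* at 27.4 ± 5.81, *Ugt2b34* at 25.5 ± 4.71, *Ugt3a2* at 20.6 ± 2.66 and *Ugt2b35* at 18.1 ± 0.766, which overlapped each with the next. *Ugt1a1* (13.5 ± 3.11), *Ugdh* (8.07 ± 1.54) and *Ugt3a1* (3.44 ± 0.983) followed without overlap. UGT2B genes held the first 3 ranks and *Ugt3a1* the last. Dividing by the exon bases a gene has to itself raised *Ugt1a1* to 32.9 ± 7.57, rank 4, and 5 of the 10 ranks were kept.

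RPF per kilobase of coding sequence gave another order in WT. *Ugt2b36* led with 2475 ± 195 normalized reads per kilobase, its range overlapping that of *Ugt2b1* (2223 ± 91.1), and *Ugt2a3* followed below both with 1735 ± 188. *Ugt2b5*, first in input, had rank 7 with 1108 ± 58.6, and *Ugt3a1* was last with 353 ± 41.7. *Ugdh*, next to last in input, had rank 5 with 1509 ± 243. The whole coding sequence was the divisor, although 67.1% of the windows of *Ugt2b5* occur unchanged elsewhere and reads with several positions were dropped. Input was divided by exon length, which in *Ugdh* is 6752 bases against 1479 coding bases. The parts of shared sequence and length in these ranks were not tested.

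In WT liver all 10 genes had more RPF than input. Each passed limma at an adjusted p of 0.05, against 31.0% of the 8994 genes tested, and their median log2 ratio was 1.596 against 0.09 over all genes. The ratio is relative to how the columns were scaled and has no length term. Input was counted over exons, from 1858 bases in *Ugt2b5* to 6752 in *Ugdh*, while coding sequences ran from 1479 bases in *Ugdh* to 1605 in *Ugt1a1*. The order of the genes by this ratio therefore also depends on exon length. *Ugt3a1* had the highest log2 ratio, 2.20 (SE 0.19, adjusted p = 2.5e-08), followed by *Ugt2a3* with 1.86 (SE 0.16). *Ugt2b36*, *Ugt3a2*, *Ugdh* and *Ugt1a1* lay between 1.57 and 1.71. *Ugt2b1* and *Ugt2b35* had 1.19 and 1.06. *Ugt2b34* (0.56, SE 0.16, adjusted p = 0.0057) and *Ugt2b5* (0.41, SE 0.13, adjusted p = 0.0113) were the lowest. Without WT mouse 1 the count of calls was 8 and without WT mouse 2 it was 9, and the calls lost were those of *Ugt2b5* and *Ugt2b34*. Windows matching another UGT made up 98.1% of the *Ugt2b5* coding sequence and 14.4% of that of *Ugt2b34*, and their exons span 1858 and 4312 bases. The parts of shared sequence and exon length in these ratios were not tested.

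**Figure D1:**
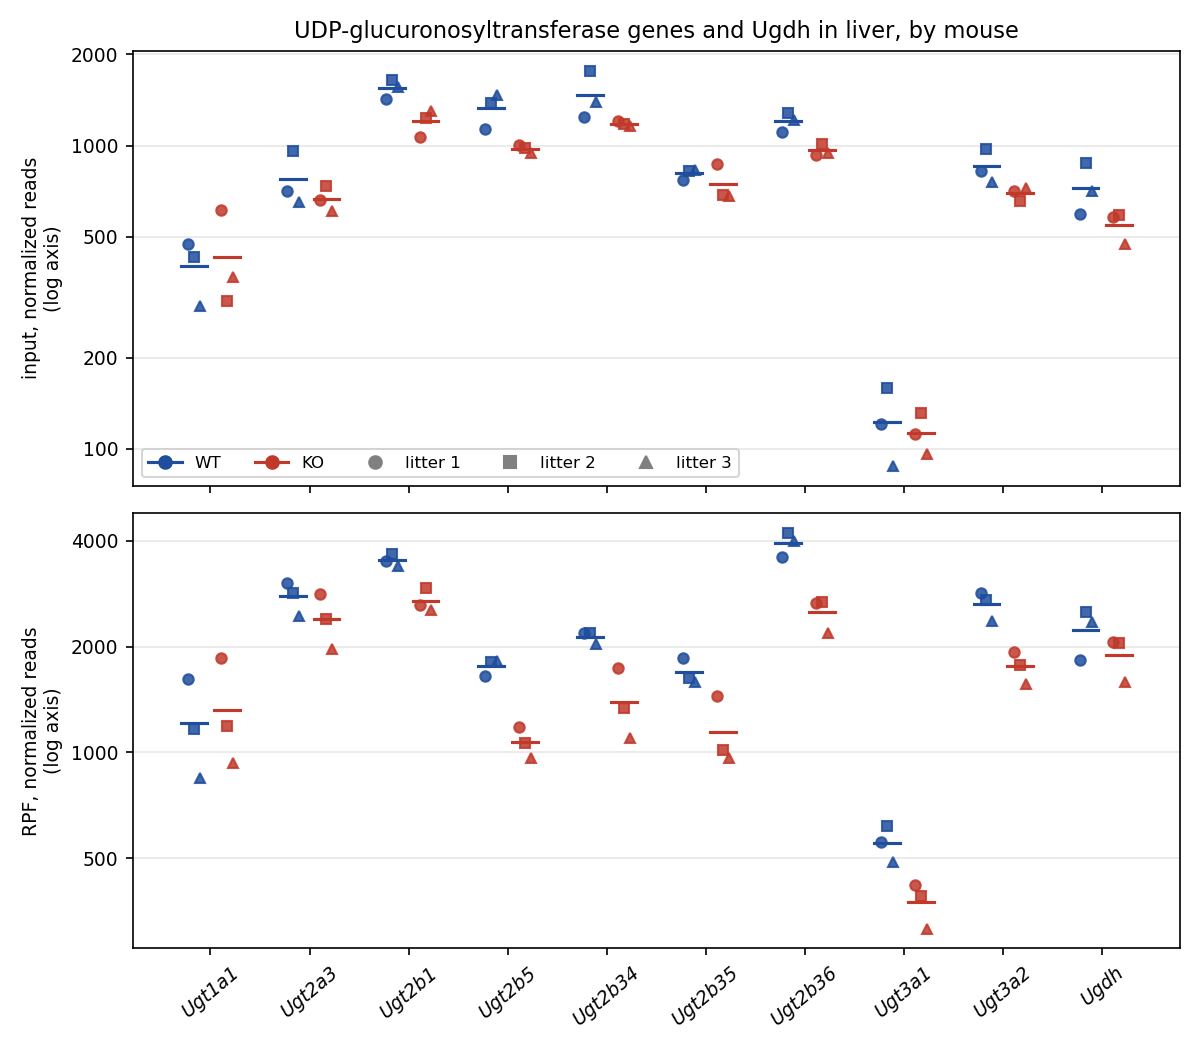
Normalized reads (log axis) of the 10 genes in input (top) and RPF (bottom); each point is 1 mouse, its shape gives the litter, and horizontal bars are means of 3 mice. In RPF all KO points lie below all WT points for *Ugt2b1*, *Ugt2b5*, *Ugt2b34*, *Ugt2b35*, *Ugt2b36*, *Ugt3a1* and *Ugt3a2*, and in input for *Ugt2b1*, *Ugt2b5*, *Ugt2b36* and *Ugt3a2*.

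Input RNA showed small differences that did not pass the test. With edgeR's quasi-likelihood test on the counts, 0 of 10 genes passed an adjusted p of 0.05, as did 0% of all 10057 genes tested (smallest adjusted p among the 10, 0.999), and DESeq2 also called 0 of the 10. At an unadjusted p under 0.05, 4 genes were lower in KO (*Ugt2b1*, *Ugt2b5*, *Ugt2b36* and *Ugdh*) and 0 higher, where 1.49% of all genes were. The log2 difference was negative in 9 of 10 genes, with a median of -0.28, while the median over all genes was -0.00037. In whole liver, fewer hepatocytes and less RNA per hepatocyte cannot be told apart.

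*Ugt2b5* had 1137, 1381 and 1467 normalized input reads in WT mice 1 to 3 and 1002, 981 and 943 in KO mice, so the genotypes did not overlap. Its log2 difference was -0.42 (SE 0.14, unadjusted p = 0.0095, edgeR). *Ugt2b1* had 1427, 1647 and 1559 in WT and 1070, 1235 and 1305 in KO, a log2 difference of -0.34 (SE 0.14). *Ugt2b36* had 1106, 1282 and 1218 in WT and 933, 1014 and 947 in KO, a log2 difference of -0.29 (SE 0.13). For these 3 genes and *Ugt3a2* (log2 difference -0.27) every KO mouse was below every WT mouse, as it was for 4.34% of all genes.

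*Ugdh*, the donor-making enzyme, had 596, 873 and 711 normalized input reads in WT and 581, 590 and 473 in KO. Its log2 difference was -0.38 (SE 0.16, unadjusted p = 0.0328, edgeR), and its difference in litter 1 was -0.04 against -0.56 and -0.59 in litters 2 and 3. *Ugt2b34*, *Ugt2a3*, *Ugt2b35* and *Ugt3a1* had log2 differences of -0.29, -0.18, -0.09 and -0.08. *Ugt1a1* was the 1 gene with a positive value, 0.15 (95% interval -0.63 to 0.93), from 475, 430 and 296 reads in WT and 616, 308 and 368 in KO. The bilirubin enzyme therefore varied more between mice of a genotype than between genotypes.

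The calls of the set were in ribosome footprints. With limma on log2(value + 1), 2 of the 10 genes passed an adjusted p of 0.05, *Ugt2b5* and *Ugt2b36*, and both fell in KO; 0.489% of the 8994 genes tested passed. Fitting the 6 RPF columns alone, with fewer libraries to estimate the spread, ended both calls (limma adjusted p = 0.0556 for *Ugt2b5* and 0.0880 for *Ugt2b36*). At an unadjusted p under 0.05, 7 genes were lower in KO, where 7.99% of all genes were. In the same 7 genes every KO mouse lay below every WT mouse, which held for 12.9% of all genes. The median log2 difference of the 10 genes was -0.57 and that of all genes -0.03.

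*Ugt2b5* had 1655, 1813 and 1819 normalized RPF reads in WT mice 1 to 3. In KO mice 1 to 3 it had 1182, 1063 and 964. KO values stood well below the WT values in each litter, and the log2 difference was -0.72 (SE 0.13, limma adjusted p = 0.0120), 1.65-fold lower. *Ugt2b36* had 3599, 4208 and 4000 reads in WT. In KO it had 2662, 2676 and 2184. The genotypes were again apart, with a log2 difference of -0.65 (SE 0.13, limma adjusted p = 0.0223), 1.57-fold lower.

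3 further UGT2B genes were also lower in each KO mouse without passing the test. *Ugt2b34* had 2190, 2192 and 2029 RPF reads in WT and 1740, 1339 and 1100 in KO, with a log2 difference of -0.64 (SE 0.16, limma adjusted p = 0.0733). *Ugt2b35* had 1859, 1625 and 1588 in WT and 1444, 1019 and 964 in KO, with a log2 difference of -0.59 (SE 0.15, limma adjusted p = 0.0891). *Ugt2b1* had 3509, 3681 and 3394 in WT and 2622, 2937 and 2545 in KO, with a log2 difference of -0.39 (SE 0.13, limma adjusted p = 0.170). Of the 5 UGT2B genes, *Ugt2b1* had the smallest difference, though its 95% interval (-0.65 to -0.12) overlapped those of the others.

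The pair of UGT3A genes had like differences. *Ugt3a2* had 2847, 2708 and 2367 RPF reads in WT and 1928, 1773 and 1571 in KO, with a log2 difference of -0.59 (SE 0.14, limma adjusted p = 0.0550). *Ugt3a1* had 555, 618 and 487 in WT and 418, 391 and 315 in KO, with a log2 difference of -0.56 (SE 0.19, limma adjusted p = 0.199). Neither pair of groups overlapped, and neither gene passed.

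*Ugt2a3*, *Ugdh* and *Ugt1a1* had overlapping groups. *Ugt2a3* had 3040, 2849 and 2449 RPF reads in WT and 2826, 2398 and 1972 in KO, a log2 difference of -0.22 (95% interval -0.56 to 0.12). *Ugdh* had 1827, 2516 and 2351 in WT and 2067, 2048 and 1584 in KO, a log2 difference of -0.23 (95% interval -0.58 to 0.12). *Ugt1a1* had 1614, 1166 and 847 in WT and 1852, 1190 and 931 in KO, a log2 difference of 0.12 (95% interval -0.65 to 0.89). For *Ugt1a1* the mice of litter 1 were the highest and those of litter 3 the lowest of either genotype, and the KO mouse was the higher of each litter, by 0.03 to 0.20 on the log2 scale. All 3 intervals exclude the estimate of *Ugt2b5* (-0.72), but each overlaps the 95% interval of *Ugt2b5*. Whether these 3 genes differ from *Ugt2b5* in RPF was not tested.

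**Figure D2:**
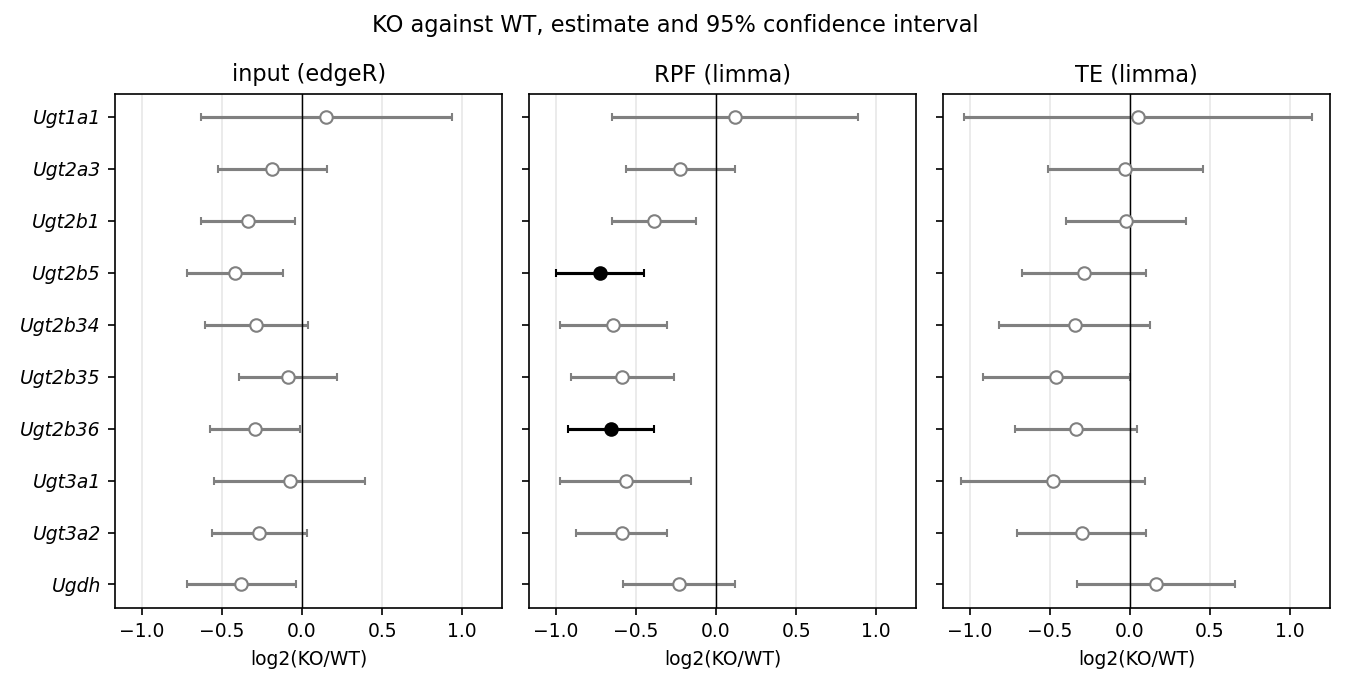
Log2(KO/WT) of each gene in input, RPF and TE, with 95% confidence intervals from the fits across all genes (3 mice per genotype). Filled points are the 2 genes with an adjusted p under 0.05, *Ugt2b5* and *Ugt2b36* in RPF; every TE interval except that of *Ugt2b35* includes 0.

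Summed over the 10 genes, normalized RPF reads were 22467 ± 1042 (SD, n = 3) in WT, from 21331 to 23376, and 16568 ± 2317 in KO, from 14130 to 18741. The ranges did not overlap, as already in 7 of the 10 genes taken alone. The 10 genes took 0.433% to 0.470% of the table's RPF reads in WT and 0.320% to 0.390% in KO. In input the sum was 9229 ± 974 in WT and 7529 ± 224 in KO.

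Because near-identical copies may trade reads, the copies were also summed. *Ugt2b5*, *Ugt2b35*, *Ugt2b36*, *Ugt2b37* and *Ugt2b38* together had 7436 ± 278 normalized RPF reads in WT and 4746 ± 591 in KO, a log2 difference of -0.65. *Ugt2b5* with *Ugt2b37* and *Ugt2b38* alone had 1810 ± 104 in WT and 1096 ± 112 in KO, a difference of -0.73. *Ugt3a1* with *Ugt3a2* had 3194 ± 297 in WT and 2132 ± 232 in KO, a difference of -0.58. In each of these 3 sums every KO mouse was below every WT mouse, as in 12.9% of all single genes. This already held for *Ugt2b5*, *Ugt2b35*, *Ugt2b36*, *Ugt3a1* and *Ugt3a2* taken alone, so the sums are not separate support. The most abundant members dominate each sum: *Ugt2b37* had 11, 18 and 17 RPF reads in WT and 16, 20 and 8 in KO, and was too low to be tested. The 5 UGT1A genes of the table together had 3655 ± 593 in WT and 3222 ± 655 in KO, a difference of -0.19, and their ranges overlapped. Reads dropped for fitting several copies are in none of these sums.

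In RPF, deviations from group means were more alike between littermates than between other mice. Litter cannot be told apart from other things shared by mice of the same number. A fit with litter as a block gave more calls. There 6 of the 10 genes passed in RPF, all lower in KO, where 2.11% of all genes were called lower. They were *Ugt2b5* (limma adjusted p = 0.0026), *Ugt2b36* (0.0031), *Ugt3a2* (0.0090), *Ugt2b35* (0.0141), *Ugt2b34* (0.0160) and *Ugt3a1* (0.0325). *Ugt2b1* had 0.0568, and *Ugt2a3*, *Ugdh* and *Ugt1a1* did not pass. In 8 genes the KO mouse was the lower in all 3 litters, the exceptions being *Ugt1a1* in each litter and *Ugdh* in litter 1; 23.8% of all 8994 genes were lower in all 3. For *Ugt2b5* the differences were -0.49, -0.77 and -0.91 in litters 1 to 3, and for *Ugt3a2* they were -0.56, -0.61 and -0.59.

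The RPF counts without the block rested on few mice. Leaving out WT mouse 2, WT mouse 3, KO mouse 2 or KO mouse 3 left 0 genes called, leaving out WT mouse 1 left 2, and leaving out KO mouse 1 gave 5. The log2 differences hardly moved, from -0.80 to -0.65 for *Ugt2b5* and from -0.72 to -0.56 for *Ugt2b36*. With the block, leaving out each mouse in turn gave 2 to 8 calls.

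RPF libraries differed in their dependence on coding-sequence GC content. The median GC content over the 10 genes was 44.7%, from 41.8% in *Ugt2b36* and 42.0% in *Ugt2b5* to 48.1% in *Ugdh* and 49.5% in *Ugt1a1*, against 52.6% over the genes tested. Within RPF libraries the slope of the log2 value on GC content, per 10 percentage points, was -0.17, -0.14 and -0.08 in WT mice 1 to 3 and -0.01, 0.12 and 0.28 in KO mice, so all KO slopes were above all WT slopes. In input the slopes were -0.05, -0.05 and 0.04 in WT and 0.01, -0.01 and 0.07 in KO. Within the set *Ugt2b36* and *Ugt2b5*, lowest in GC, had the most negative RPF differences, -0.65 and -0.72. *Ugdh* and *Ugt1a1*, highest in GC, had -0.23 and 0.12. Between these genes the orders differed. *Ugt2b1*, at 42.7%, had -0.39 and *Ugt2b34*, at 45.8%, had -0.64. *Ugt2a3* and *Ugt3a2*, at 44.8% and 44.7%, had -0.22 and -0.59. How far GC content and RPF difference go together within the set was not tested.

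With a smooth GC trend removed from every library, the median RPF log2 difference of the 10 genes was -0.37, and 0 of the 10 passed limma, where 15 genes (0.167% of 8986) passed. At an unadjusted p under 0.05, 6 of the 10 were lower in KO, and 5.61% of all genes were. *Ugt2b5* went from -0.72 to -0.47 (adjusted p = 0.187) and *Ugt2b36* from -0.65 to -0.40 (adjusted p = 0.238). *Ugt2b34* kept -0.47, *Ugt3a2* -0.39, *Ugt3a1* -0.38 and *Ugt2b35* -0.36. *Ugt2b1* had -0.15, *Ugdh* -0.11 and *Ugt2a3* -0.03, and *Ugt1a1* had 0.21. With both the trend removed and the litter block, 0 passed, with adjusted p = 0.0562 for *Ugt2b5* and 0.0741 for *Ugt2b36*. Each log2 difference became more positive by 0.09 to 0.26, and 9 of the 10 remained negative.

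**Figure D3:**
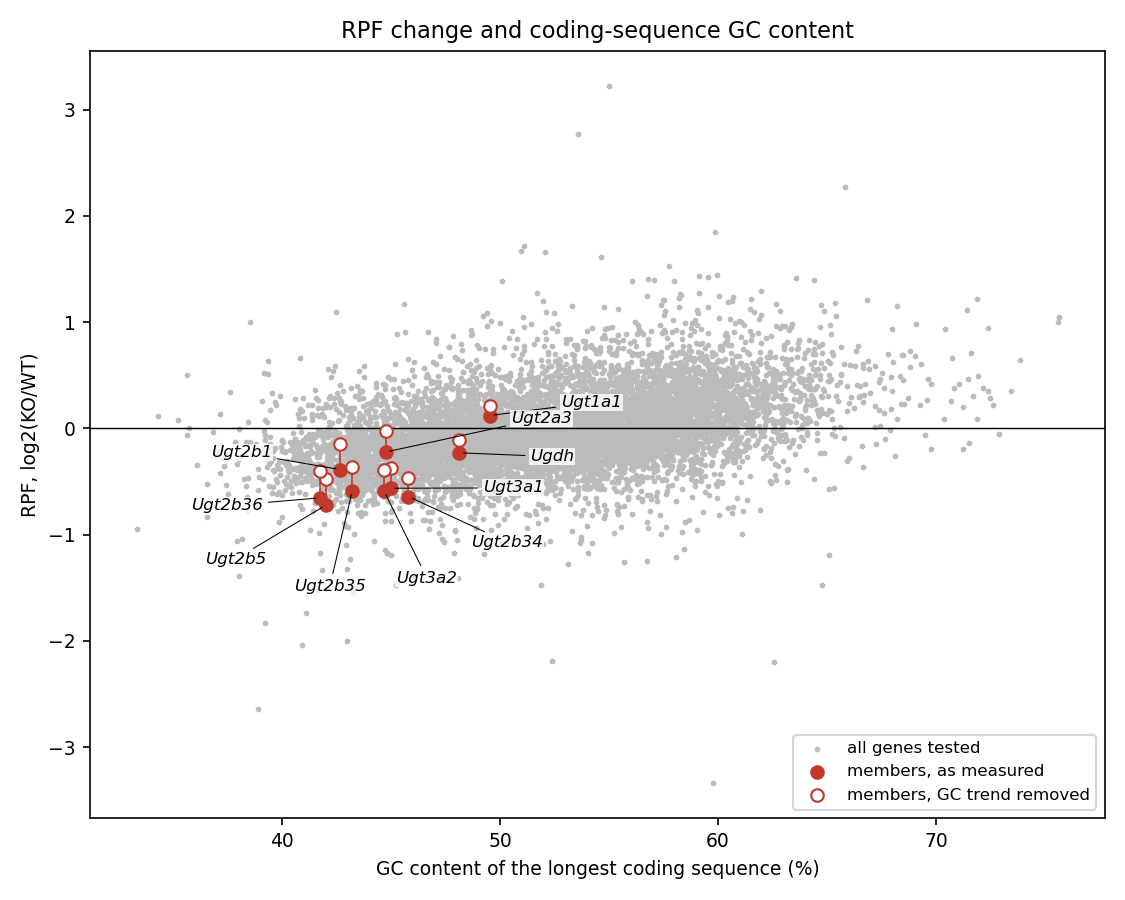
RPF log2(KO/WT) against GC content of the longest coding sequence for the 8986 genes with a coding sequence (grey) and the 10 genes as measured (filled) and after removal of the GC trend (open). *Ugt2b36* and *Ugt2b5*, lowest in GC at 41.8% and 42.0%, move from -0.65 and -0.72 to -0.40 and -0.47.

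TE gave no calls. With limma, 0 of 10 genes passed, as did 0% of the 8994 genes, and the smallest adjusted p among the 10 was 0.998. edgeR, run on reads recovered from the normalized values, called 0 as well. Neither fit paired the input and RPF libraries of a mouse, though both came from the same lysate. The lack of calls therefore does not show that TE was unchanged. At an unadjusted p under 0.05, 1 gene was lower, *Ugt2b35*, where 2.61% of all genes were. The median log2 difference was -0.29 and that of all genes -0.01.

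*Ugt2b35* had TE of 2.41, 1.96 and 1.91 in WT and 1.66, 1.48 and 1.41 in KO, a log2 difference of -0.46 (95% interval -0.92 to -0.0027). *Ugt2b36* had 3.25, 3.28 and 3.28 in WT and 2.85, 2.64 and 2.31 in KO, a log2 difference of -0.34 (SE 0.18). *Ugt2b5* had 1.45, 1.31 and 1.24 in WT and 1.18, 1.08 and 1.02 in KO, a log2 difference of -0.29 (SE 0.19). In these 3 genes, *Ugt3a1* and *Ugt3a2* every KO mouse was below every WT mouse, as in 7.34% of all genes. *Ugt3a1* had the most negative estimate, -0.48 (SE 0.28), with TE of 4.55, 3.88 and 5.49 in WT and 3.72, 2.96 and 3.26 in KO. *Ugdh* was the 1 gene with every KO mouse above every WT mouse, at 3.06, 2.88 and 3.30 in WT and 3.55, 3.47 and 3.34 in KO. Its log2 difference was 0.17 (SE 0.24, 95% interval -0.33 to 0.66). How many of all genes were apart in this direction was not counted, so the separation of *Ugdh* may be ordinary.

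*Ugt2b1* and *Ugt2a3* had TE log2 differences of -0.02 and -0.03, so that the RPF difference of *Ugt2b1* (-0.39) was about that of its input (-0.34). For *Ugt2b35* and *Ugt3a1* input differences were -0.09 and -0.08 and RPF differences -0.59 and -0.56. *Ugt2b5*, *Ugt2b34*, *Ugt2b36* and *Ugt3a2* lay between, with input differences from -0.42 to -0.27 and RPF differences from -0.72 to -0.59. Whether these genes differ from each other in TE was not tested.

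**Figure D4:**
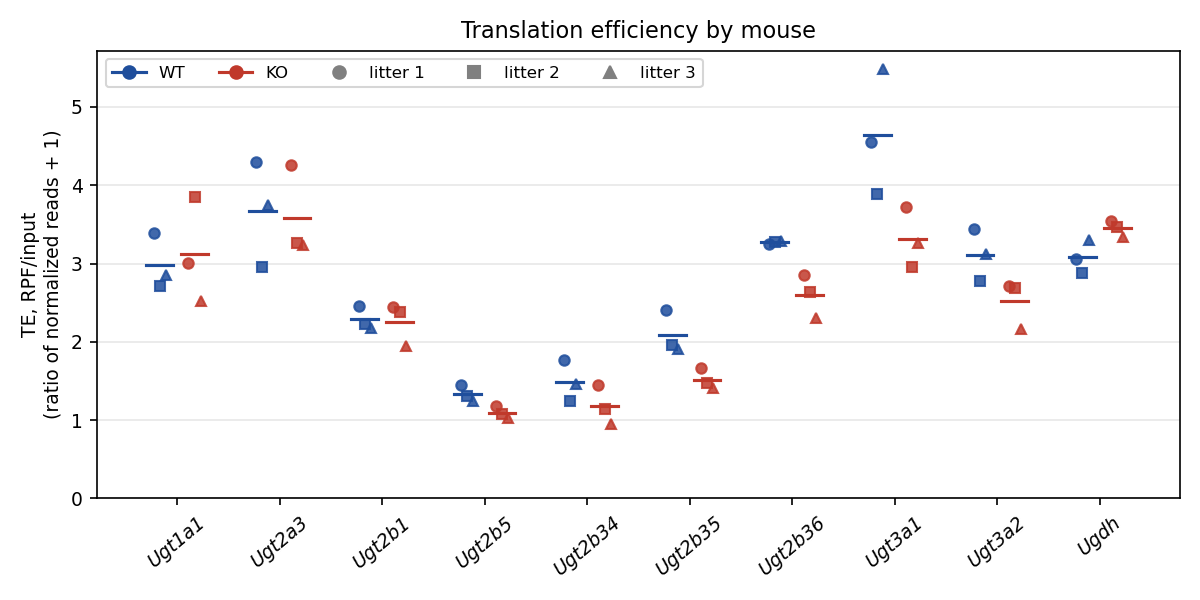
TE (ratio of normalized RPF reads + 1 to normalized input reads + 1) by mouse, with bars at the means of 3 mice and shapes for litters. *Ugt2b5* and *Ugt2b34* are lowest in both genotypes, in a ratio that has no length term. KO points are below WT points for *Ugt2b5*, *Ugt2b35*, *Ugt2b36*, *Ugt3a1* and *Ugt3a2* and above them for *Ugdh*.

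Across the 12 libraries, with log2 values centred within each assay, the 10 genes varied together with a median pairwise Pearson r of 0.722 (45 pairs, from -0.251 to 0.967). The genes outside the set closest to their mean were *Pros1* (r = 0.962), *Hsbp1* (0.954), *Actr2* (0.945), *Mkln1* (0.944) and *Lamp1* (0.939). These libraries share depth, litter and the GC slopes above, and the values are a description.

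Of the 13 other UGT genes, 4 were tested in input and 5 in RPF and TE, and 0 passed in any of them. At an unadjusted p under 0.05, 1 was higher and 1 lower in input, 1 was higher and 2 lower in RPF, and 0 in TE. Over all genes, 348 of 10057 were under 0.05 in input, 1205 of 8994 in RPF and 423 of 8994 in TE. *Ugt1a9* had the smallest p in RPF, with a log2 difference of -0.60 (SE 0.15, limma adjusted p = 0.0707), and also in TE, with -0.17. *Ugt1a5* had the smallest p in input, with 0.97 (SE 0.34, edgeR adjusted p = 0.999), and its RPF difference was 0.78. Both genes share their later exons with *Ugt1a1*. *Ugt2b38*, the copy of *Ugt2b5*, had an RPF log2 difference of -1.17 (SE 0.43, limma adjusted p = 0.245) from 29, 48 and 84 reads in WT and 28, 17 and 18 in KO. *Ugt2a1* and *Ugt2a2* had 0 input counts.

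Among 23 genes of UDP-sugar supply, carriers, efflux and uptake pumps, deconjugation and glucuronate use, 22 were tested in input and 21 in RPF and TE, and 0 passed. At an unadjusted p under 0.05, 1 was higher and 6 were lower in RPF, where 1205 of all 8994 genes passed in either direction. *Slco1a1*, an organic anion uptake transporter, had the smallest p in RPF (log2 difference -0.55, limma adjusted p = 0.0597). *Dcxr*, the xylulose reductase of the glucuronate path, had the smallest in input (0.38, edgeR adjusted p = 0.999) and *Rgn*, the gluconolactonase, in TE (-0.47, limma adjusted p = 0.998). *Ugp2*, which makes UDP-glucose upstream of *Ugdh*, had an RPF log2 difference of -0.49 (limma adjusted p = 0.268).

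Of 18 regulators of UGT genes, 17 were tested and 0 passed in input, RPF or TE. *Ahr*, the aryl hydrocarbon receptor, had the smallest p in input (log2 difference 0.75, edgeR adjusted p = 0.999) and in RPF (0.62, limma adjusted p = 0.249), and *Nr1h4*, the bile acid receptor FXR, in TE (-0.42, limma adjusted p = 0.998). Of 16 other phase II enzymes, 1 passed, *Papss2*, which makes the sulfate donor PAPS. It rose in RPF by a log2 difference of 0.62 (SE 0.13, limma adjusted p = 0.0308), and it had the smallest p in input as well (0.50, edgeR adjusted p = 0.999). Of the other 15, 1 was higher and 5 were lower in RPF at an unadjusted p under 0.05, where 1205 of all 8994 genes passed in either direction. *Gsta3*, a glutathione transferase, had the smallest p in TE (-0.51, limma adjusted p = 0.998).

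Beside the RPF differences of the UGT genes, the male-biased liver gene *Mup20* fell in RPF by a log2 difference of -1.83 (SE 0.28, limma adjusted p = 0.0120), and the male-biased genes had a median of -0.71 in RPF and -0.40 in input. The stellate cell markers had an RPF median of 0.55, with 4 of 5 higher at an unadjusted p under 0.05 and 0 passing. In RPF 1205 of all 8994 genes tested with limma were under 0.05 in either direction. Hepatocyte markers had medians of -0.11 in RPF and 0.02 in input. The part of these shifts in the UGT values was not tested.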

How the data were processed

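Liver input and RPF libraries from 3 WT and 3 KO littermate pairs were analysed from deposited files. Per the study's methods, the authors trimmed reads, aligned input pairs to mm10 with STAR 2.7.3a, kept unique alignments and made the deposited counts per gene with featureCounts (1.6.0 in the methods, 2.0.3 in the file header), by strand and over exons. RPF reads were freed of rRNA and processed on the RiboToolkit server, with 2 mismatches and a single mapping position allowed. The deposited normalized signal values are gene reads of each library times a constant: dividing by the value of 1 read gave whole reads (within 0.01) for 100% of values in all 12 columns. The authors named these values RPKM, but no gene length enters them. The authors' own comparison columns (log2 fold changes, p-values and adjusted p-values) were not used.

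Input counts were tested with edgeR 4.0.16 (TMM, filterByExpr, quasi-likelihood, robust; 10057 genes). RPF, TE and RPF against input in WT were tested with limma 3.58.1 (trend, robust) on log2(value + 1) over 12 libraries and 4 group means, for the 8994 genes whose mean reached 10 in both assays; fold changes on this scale understate those of low genes. Adjusted p-values are Benjamini-Hochberg over all genes tested, with a threshold of 0.05. The table unit was taken as normalized values, as designed, and edgeR on the recovered whole reads, an alternative, called 66 genes in RPF and 0 in TE. Depth limits low genes most: the median gene had 36 to 96 reads in an input library and 61 to 111 in an RPF library.

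Groups came from the sample titles. The source names give each mouse as a littermate of the same-numbered mouse of the other genotype, so mice are paired by number. Deviations from group means correlated between littermates with r of 0.0816, 0.127 and 0.100 (input) and 0.242, 0.144 and 0.195 (RPF), and between other mice with r of at most 0.0813. Deviations of a group cancel out over its mice, so these values depend on each other. The study's methods have no litter term, so the litter block was an alternative. Other alternatives were pseudocounts of 0.1 and 5, no filter or a mean of at least 50, median-centred columns, other size factors, DESeq2 1.42.0, leaving out each mouse, and removal of a spline (4 degrees of freedom) on GC content of the longest GENCODE vM21 coding sequence, known for 99.9% of genes tested. Confidence intervals cover 95%. Window matches are to annotated transcripts, over 30 bases. The scripts were tested on simulated data.

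All genes of the list were named, with *Mettl5*, the gene of smallest p of each further list, any that passed, and the 5 genes of highest correlation; *Ugt2b37*, *Ugt2b38* and *Ugp2* were named after their values were seen. The members and lists were chosen with earlier results of these data known.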

Additional observations from a re-analysis of the deposited data

How the results depend on the processing

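Of 699 values recomputed under alternatives, 624 were unchanged in these terms: tested differences kept both direction and side of the threshold, counts stayed within 1.5 times, and medians moved by less than 1 SD of the medians of the 3 litters. Another 23 kept direction and newly passed, 17 kept direction and no longer passed, 18 turned sign, and 17 counts or medians moved further. The RPF count of 2 genes became 6 with the litter as a replicate block, 6 with that block and median-centred columns, 0 with the GC trend removed, 0 with the block and the GC trend removed, and 0 when the 6 RPF columns were fitted alone. Over all genes, 44 became 293 with the block, 15 with the GC trend removed, 93 with both and 23 with RPF columns alone. Leaving out 1 mouse gave 0 to 5 calls without the block. With the block it gave 5 without WT mouse 1, 8 without KO mouse 1 and 2 or 3 without each of the others; these fits and the centred block were added after seeing the data. The block changed no call in input or TE. A mean of at least 50 gave 3 calls, where 63 of 5038 genes passed.

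With the GC trend removed, with or without the block, the median RPF difference was -0.37 in place of -0.57 and the median TE difference -0.12 in place of -0.29, and the TE differences of *Ugt2a3* and *Ugt2b1* turned to 0.13 and 0.16. Leaving out 1 mouse turned signs of *Ugt1a1* (input -0.22 to 0.35, RPF -0.15 to 0.35, TE -0.11 to 0.20), *Ugt2a3* (input -0.30 to 7.4e-05, TE -0.17 to 0.10), *Ugt2b1* (TE -0.087 to 0.078) and *Ugt3a1* (input -0.28 to 0.15), none of which had passed. Beyond what an alternative's construction shows, the cause was not tested. Order by level kept 5 of 10 ranks with each gene's own exon bases. Depth limits *Ugt3a1* and the copies of *Ugt2b5* most.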
